A study of Mus musculus with 6 samples.

Results

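The EGF receptor family and its ligands were followed in RNA-seq of the mouse lacrimal gland bud at E14.5. The 10 genes were taken by name from the 23420 gene symbols of the deposited tables, namely the receptors Egfr, Erbb2, Erbb3 and Erbb4 and the ligands Egf, Tgfa, Areg, Hbegf, Ereg and Btc, and all 10 had a row. The buds were cut from sections by laser capture, their RNA was amplified and sequenced, and the reads on each gene were counted. There were 3 Control samples, titled WT and carrying the Le-Cre transgene, and 3 Pea3 TKO samples, which carried Le-cre together with Pea3-/-, Erm fl/fl and Er81 fl/fl. All embryos had a mixed background. Le-Cre is active in the conjunctival and lacrimal gland epithelium, so Erm (Etv5) and Er81 (Etv1) were deleted there, whereas Pea3 (Etv4) was missing from every cell of the mutant embryo. These 3 genes encode the Pea3 group of ETS transcription factors, which FGF signaling switches on through the MAPK cascade, and the comparison asks which genes depend on them in the bud. No source used here says that the samples of a group came from separate embryos, so the p-values measure the spread between these samples only.

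EGF receptor (Egfr) and ErbB2 to ErbB4 are receptor tyrosine kinases that work in pairs. Egfr binds Egf, Tgfa, Areg, Hbegf, Ereg, Btc and Epgn. ErbB2 has no known ligand and acts as the preferred partner of the other receptors. ErbB3 has a weak kinase and signals through such partners after binding a neuregulin, and ErbB4 binds neuregulins as well as Btc, Hbegf and Ereg. The ligands are made as membrane proteins and are released by ADAM proteases, with the rhomboid-like proteins iRhom1 and iRhom2 controlling the protease ADAM17. In stratified epithelia Egfr signaling is best known for driving the growth of basal cells, and like FGF receptors it feeds the MAPK cascade.

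Egfr and Erbb2 were higher in Pea3 TKO buds, by 2.53-fold and 2.23-fold, while Erbb3 was 2.37-fold lower. The ligands Btc, Areg and Hbegf were higher by 7.63-fold, 5.13-fold and 3.16-fold. For Tgfa, Egf, Ereg and Erbb4 no change passed the test. In all, 6 of the 10 genes passed an adjusted p of 0.05 in the edgeR quasi-likelihood test, 5 higher and 1 lower, where 25.0% of the 13087 tested genes passed, 13.6% higher and 11.3% lower. The median log2 fold change of the 10 genes was 1.5, against 0.01 over all tested genes. The groups did not overlap for 7 of the 10 genes, 6 higher and 1 lower, against 43.9% of all tested genes, 22.5% higher and 21.3% lower. All 10 genes passed the filter on low counts, but Erbb4, Ereg and Areg did so only with the help of the Pea3 TKO samples. Erbb4 had 0 Control samples over the filter, Ereg had 1 and Areg had 2. Erbb4 and Areg are among the 6 genes that were higher without overlap, Areg is among the 5 called higher, and all of them enter the median. These counts and the median thus rest in part on genes that the mutants brought into the test.

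Levels are CPM (TMM-normalized counts scaled to a library of 1000000), and group means carry the SD of n = 3 samples. Libraries held 14194775 to 17860140 counts, so that 3 counts corresponded to 0.169 to 0.210 CPM, a floor for counting error only. The deleted genes were lower in the libraries labelled Pea3 TKO, as the label says, with log2 fold changes of -2.95 for Etv4, -2.93 for Etv5 and -1.74 for Etv1 (adjusted p of at most 0.00043). Summed Y-linked counts separated the libraries within a group. The 4 Y-linked genes reached 135.7 to 174.7 CPM in all 3 Controls and 139.0 in Pea3 TKO 3, but 0.445 and 0.210 in Pea3 TKO 1 and 2. Pea3 TKO 1 and 2 also held the most mesenchyme marker RNA, 427.6 and 601.2 CPM over 13 genes (the list without Foxc1), against 17.2 in Pea3 TKO 3 and 24.9 to 139.2 in Controls. Foxc1 alone measured 184.0 to 278.9 CPM over the libraries. With it the sums were 698.7 and 880.1 CPM, against 276.2 in Pea3 TKO 3 and 242.8 to 323.2 in Controls. Not every marker followed, since Fgf10 had 0 counts in each mutant and Pdgfrb was lower in Pea3 TKO 1 than in each Control. Pea3 TKO 3 also kept the most RNA of the deleted genes Etv4 and Etv5. In Pea3 TKO 1 to 3, Etv4 measured 10.9, 19.1 and 28.4 CPM and Etv5 88.2, 152.2 and 177.0 CPM, while Etv1 was similar at 9.21, 9.37 and 9.98 CPM. The sex of the embryo, the mesenchyme content and the remaining Etv4 and Etv5 RNA cannot be told apart among the mutants. Log2 fold changes or adjusted p-values without Pea3 TKO 1 and 2 are therefore given beside the results for receptors, ligands and named pathway genes, taken from Controls 1 to 3 and Pea3 TKO 3. With 1 mutant left, that fit assumes that the mutant varies as the Controls do.

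**Figure D1:**
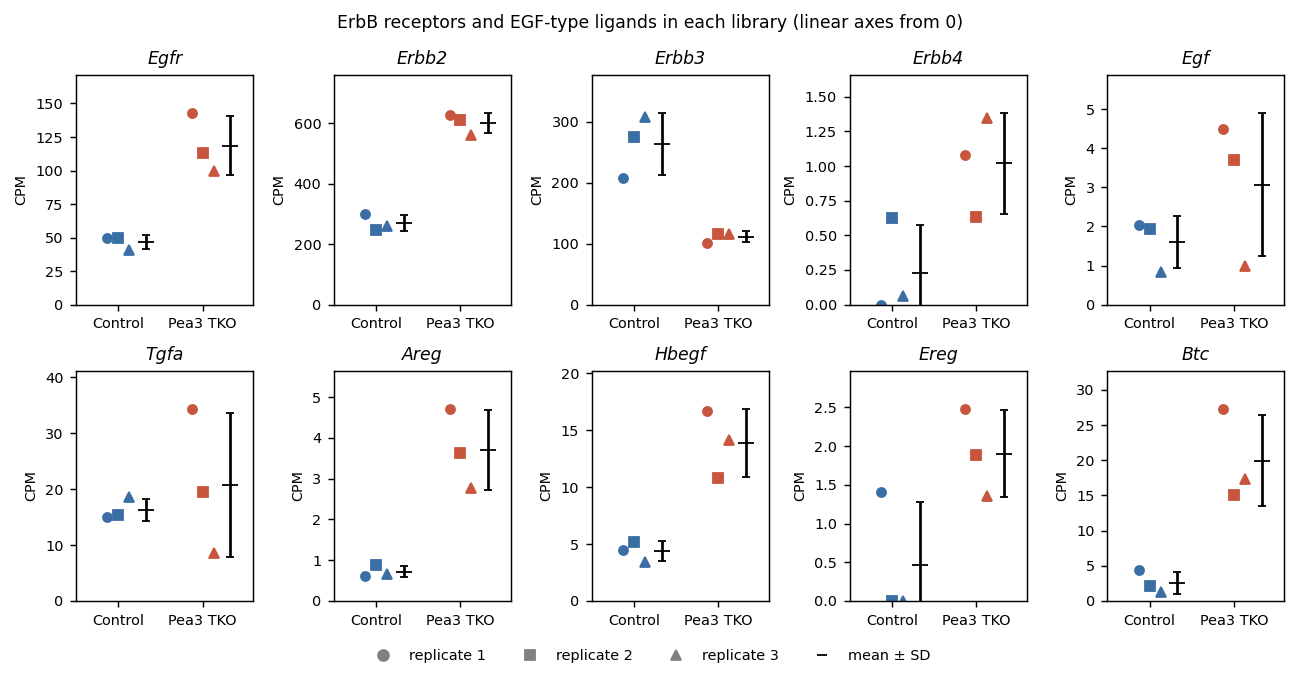
Expression of the 4 receptors and 6 ligands in each library, in TMM-normalized CPM on linear axes that start at 0 and differ between panels. Symbols give the replicate number, and the bar gives the mean ± SD of 3 samples. Egfr, Erbb2, Areg, Hbegf and Btc lay higher in all 3 Pea3 TKO samples than in all 3 Controls and Erbb3 lay lower, while Egf, Tgfa and Ereg overlapped.

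Promoter sequence was available for 7 of the 10 genes, but not for Erbb3, Hbegf and Ereg. It is shown for Egfr, Erbb2 and Areg because they changed and because the window holds a core of the ETS binding site. That is the kind of element that the deleted factors recognize. Sequences are from RefSeq on GRCm38.p6 and run 5′ to 3′ on the strand of the gene, from 250 bases before the start site to 30 bases after it. Capitals mark AGGAAG or CGGAAG on either strand, which reads CTTCCT or CTTCCG on the strand shown when the motif lies on the other one. The Egfr window is chr11:16751953-16752232, the Erbb2 window chr11:98412234-98412513 and the Areg window chr5:91139349-91139628, all on the + strand.
Egfr: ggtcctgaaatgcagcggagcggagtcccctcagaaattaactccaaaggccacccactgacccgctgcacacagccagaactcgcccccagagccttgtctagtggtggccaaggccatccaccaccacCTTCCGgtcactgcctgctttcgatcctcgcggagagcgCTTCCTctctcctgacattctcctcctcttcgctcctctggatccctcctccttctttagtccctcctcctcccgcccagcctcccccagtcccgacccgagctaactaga
Erbb2: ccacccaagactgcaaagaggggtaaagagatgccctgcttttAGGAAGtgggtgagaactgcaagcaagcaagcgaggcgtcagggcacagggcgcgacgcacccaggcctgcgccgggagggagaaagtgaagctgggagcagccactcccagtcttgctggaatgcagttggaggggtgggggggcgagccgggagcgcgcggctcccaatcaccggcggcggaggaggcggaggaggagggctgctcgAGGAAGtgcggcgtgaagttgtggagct
Areg: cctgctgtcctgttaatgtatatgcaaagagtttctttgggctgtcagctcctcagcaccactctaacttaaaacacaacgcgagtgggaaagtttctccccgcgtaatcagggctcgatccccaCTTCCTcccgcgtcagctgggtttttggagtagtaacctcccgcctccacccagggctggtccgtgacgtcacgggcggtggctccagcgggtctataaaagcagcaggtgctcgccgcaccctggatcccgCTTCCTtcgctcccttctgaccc
The Egfr window held CGGAAG with its first base at -120 and AGGAAG at -81 from the start site, both on the strand opposite to the gene. Erbb2 held AGGAAG on its own strand at -207 and at 3, and Areg held it on the opposite strand at -125 and at 8. Over the longer window of the table, which ends 50 bases after the start site, 5 of the 7 genes had a match, the other 2 being Tgfa and Egf, and Erbb4 and Btc had none. Egf had 2 promoters, each with a match, so that by promoter the count was 6 of 8. Such matches are common, since 46.5% of 32851 promoters of that length held at least 1 of these motifs, 35.4% AGGAAG and 16.9% CGGAAG. Genes with a match were thus found among those that were higher (Egfr, Erbb2, Areg) and among those not past the test (Tgfa, Egf), and Btc was higher without one. Erbb3, the only member called lower, had no promoter sequence here and was not examined. A match is a description of the letters and does not show binding.

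Among the receptors, Egfr, the receptor for all 6 ligands of the set, lies on chromosome 11 (chr11:16752203-16918158, + strand, GRCm38). It measured 49.7, 49.8 and 40.9 CPM in Controls 1 to 3 and 143.0, 112.7 and 99.9 CPM in Pea3 TKO 1 to 3. Every mutant sample was thus above every Control, and the lowest mutant was the sample with Y-linked counts. The mean went from 46.8 ± 5.11 to 118.5 ± 22.1 CPM, a log2 fold change of 1.34 (standard error 0.16, 95% interval 0.97 to 1.71, adjusted p = 0.0006). Egfr passed in the 4 libraries with Y-linked counts too (1.11, adjusted p = 0.03).

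Erbb2, the partner receptor without a ligand, lies on the same chromosome (chr11:98412470-98437716, + strand). It measured 299.3, 248.5 and 261.6 CPM in Controls and 627.8, 612.6 and 563.3 CPM in Pea3 TKO. The mutants stood in a narrow range and far above the Controls. The mean rose from 269.8 ± 26.4 to 601.2 ± 33.8 CPM, a log2 fold change of 1.16 (standard error 0.12, 95% interval 0.89 to 1.42, adjusted p = 0.00023). In the 4 libraries with Y-linked counts the value was 1.07 (adjusted p = 0.012). The Erbb2 exons overlap those of Mien1 on the other strand by 9 bases, 0.2% of their length.

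Erbb3, the receptor that needs a partner to signal, went the other way (chr10:128567523-128589652, - strand). Controls measured 207.1, 276.0 and 307.4 CPM and Pea3 TKO 101.0, 116.3 and 116.6 CPM. All 3 mutants were below all 3 Controls, and Control 1 was the lowest of its group. The mean fell from 263.5 ± 51.3 to 111.3 ± 8.89 CPM, a log2 fold change of -1.24 (standard error 0.16, 95% interval -1.59 to -0.90, adjusted p = 0.00065). In the 4 libraries with Y-linked counts the size was similar at -1.17, but it missed the threshold (adjusted p = 0.055). Erbb3 is also a gene of Schwann cell precursors, whose markers summed to 24.6 to 30.0 CPM over 7 genes in Controls and 17.1 to 28.4 CPM in Pea3 TKO, with Cdh19 at 0 in every library and none of the 3 tested markers past the threshold. Of the 7 lacrimal bud markers 4 were lower and 2 were higher, against 11.3% lower and 13.6% higher of all tested genes. Among the lower ones was Sox10, which went from 387.8 ± 6.42 to 71.9 ± 29.7 CPM. Among the higher ones was Pax6, which went from 210.0 ± 28.7 to 450.7 ± 31.5 CPM. In bulk tissue, fewer cells of a type and less RNA per cell cannot be told apart.

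Erbb4 (chr1:68032186-69108059, - strand), the other neuregulin receptor, was close to the floor. It had 0, 10 and 1 counts in Controls and 17, 9 and 23 counts in Pea3 TKO. In CPM the mutants lay just above the Controls, with 0.629 in Pea3 TKO 2 against 0.623 in Control 2. The log2 fold change of 2.13 had a 95% interval from -0.48 to 4.74 and did not pass (adjusted p = 0.21), nor did it in the 4 libraries with Y-linked counts (2.53, adjusted p = 0.51), so neither a change nor its absence was shown at this depth.

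Per kilobase of exon, which allows receptors to be set side by side, Erbb2 and Erbb3 were near each other in Controls and far apart in Pea3 TKO. The level of Erbb2 was 51.8 ± 5.06 CPM per kilobase in Controls and that of Erbb3 43.8 ± 8.53, a gap within their spread. In Pea3 TKO the levels were 115.4 ± 6.48 and 18.5 ± 1.48. Egfr followed in both groups, with a level of 4.13 ± 0.451 CPM per kilobase in Controls and 10.5 ± 1.95 in Pea3 TKO. Erbb4 was last in both groups, at 0.0186 and 0.0826 CPM per kilobase. The order Erbb2, Erbb3, Egfr, Erbb4 held in every library but Control 3, where Erbb3 was slightly above Erbb2. The ratio of Erbb3 to Erbb2 per kilobase was 0.599, 0.962 and 1.02 in Controls and 0.139, 0.164 and 0.179 in Pea3 TKO. The ratio of Erbb2 to Egfr, both higher in the mutant, was 13.1, 10.9 and 13.9 in Controls and 9.54, 11.8 and 12.3 in Pea3 TKO, and the groups overlapped.

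As a share of the summed receptor level, Erbb2 took 52.1% ± 6.61 in Controls and 79.9% ± 0.559 in Pea3 TKO. The share of Erbb3 was 43.8% ± 6.99 and 12.9% ± 1.53, and that of Egfr 4.16% ± 0.625 and 7.22% ± 1.05. Shares add up to the whole, so they restate the changes of the single receptors and were not tested. Control 1 stood apart from the other Controls, with an Erbb2 share of 59.7% against 48.7% and 47.9%. The summed level itself was 99.7 ± 4.58 CPM per kilobase in Controls and 144.5 ± 7.13 in Pea3 TKO. These levels assume even coverage along the transcript, which could not be checked from gene counts of amplified RNA.

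**Figure D2:**
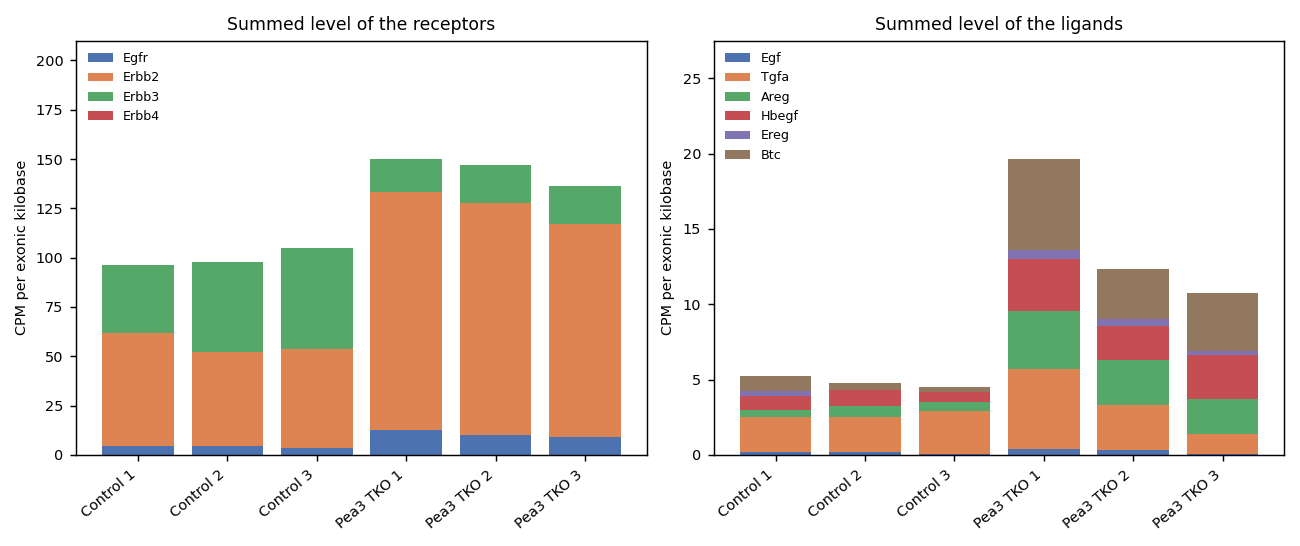
Summed level of the receptors (left) and of the ligands (right) in each library, as CPM per exonic kilobase, stacked by gene on linear axes from 0. In the receptors, Erbb3 shrank from 43.8 to 18.5 CPM per kilobase between the group means while Erbb2 grew from 51.8 to 115.4. In the ligands, Tgfa was the largest part of each Control bar, and Btc, Areg and Hbegf made up most of the Pea3 TKO bars.

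Among the ligands, Btc (betacellulin), which binds both Egfr and ErbB4, had the largest fitted change of the 6. It measured 4.34, 2.12 and 1.30 CPM in Controls and 27.2, 15.1 and 17.4 CPM in Pea3 TKO. Every mutant was above every Control, and Control 1 was the highest Control. The mean rose from 2.59 ± 1.57 to 19.9 ± 6.45 CPM, a log2 fold change of 2.93 (standard error 0.45, 95% interval 1.92 to 3.95, adjusted p = 0.0019). Without Control 1 the log2 fold change was 3.53. In the 4 libraries with Y-linked counts it was 2.76 and missed the threshold (adjusted p = 0.062).

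Areg (amphiregulin), a ligand of Egfr alone and an autocrine growth factor of keratinocytes, rested on few reads. It had 11, 14 and 10 counts in Controls and 74, 52 and 47 counts in Pea3 TKO, which is 0.620, 0.872 and 0.650 CPM against 4.70, 3.64 and 2.76 CPM. The groups were well apart and the lowest mutant was the one with Y-linked counts. The mean rose from 0.714 ± 0.138 to 3.70 ± 0.971 CPM, a log2 fold change of 2.36 (standard error 0.60, 95% interval 1.01 to 3.71, adjusted p = 0.019). The call was lost without Control 2, Control 3, Pea3 TKO 1 or Pea3 TKO 2 (adjusted p = 0.05 to 0.067) and in the 4 libraries with Y-linked counts (1.95, adjusted p = 0.34).

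Hbegf, the heparin-binding ligand of Egfr and ErbB4, measured 4.51, 5.17 and 3.45 CPM in Controls and 16.7, 10.8 and 14.1 CPM in Pea3 TKO. The lowest mutant was above the highest Control. The mean rose from 4.38 ± 0.871 to 13.9 ± 2.97 CPM, a log2 fold change of 1.66 (standard error 0.32, 95% interval 0.95 to 2.37, adjusted p = 0.0055). In the 4 libraries with Y-linked counts the size was 1.70 and missed the threshold (adjusted p = 0.079).

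Tgfa, the ligand of Egfr best known from skin and hair follicles, lies on chromosome 6 (chr6:86195223-86275719, + strand). It measured 14.9, 15.3 and 18.6 CPM in Controls and 34.3, 19.4 and 8.58 CPM in Pea3 TKO. The mutants spread on both sides of the Controls, with Pea3 TKO 3 the lowest library of the 6. The log2 fold change of 0.35 (standard error 0.41, 95% interval -0.57 to 1.27, adjusted p = 0.57) turned to -0.22 without Pea3 TKO 1 and to -0.91 in the 4 libraries with Y-linked counts. Pea3 TKO 3 is also the mutant with Y-linked counts, with the lowest mesenchyme marker sum and with the most Etv4 and Etv5 RNA, and the part of each was not tested.

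Egf (chr3:129677565-129755316, - strand) showed the same ordering of the mutants. It measured 2.03, 1.93 and 0.845 CPM in Controls and 4.51, 3.71 and 0.998 CPM in Pea3 TKO. Pea3 TKO 3 was within the range of the Controls and the other 2 mutants were above it. The log2 fold change was 0.93 (standard error 0.71, 95% interval -0.65 to 2.52, adjusted p = 0.38), and it was -0.67 in the 4 libraries with Y-linked counts. Of the Egf exons, 500 bases (4.4%) overlap 6330410L21Rik on the other strand, and whether reads were counted by strand is not given in the sources used here.

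Ereg (epiregulin, chr5:91074622-91093646, + strand), which binds Egfr and ErbB4, had 25, 0 and 0 counts in Controls and 39, 27 and 23 counts in Pea3 TKO. Control 1 alone brought the groups to overlap, with 1.41 CPM against 1.35 to 2.48 CPM in the mutants. The log2 fold change was 1.98 (standard error 1.31, 95% interval -0.94 to 4.89, adjusted p = 0.30). Without Control 1 the remaining Controls had no read, and Ereg was at least 20.0-fold higher in Pea3 TKO, set against 3 counts over both Controls, with an adjusted p of 0.0088. That fit leaves out the only Control with reads on the gene. Without any other library the log2 fold change was 1.41 to 2.174 (adjusted p = 0.35 to 0.52), and in the 4 libraries with Y-linked counts it was 1.52 (adjusted p = 0.76).

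**Figure D3:**
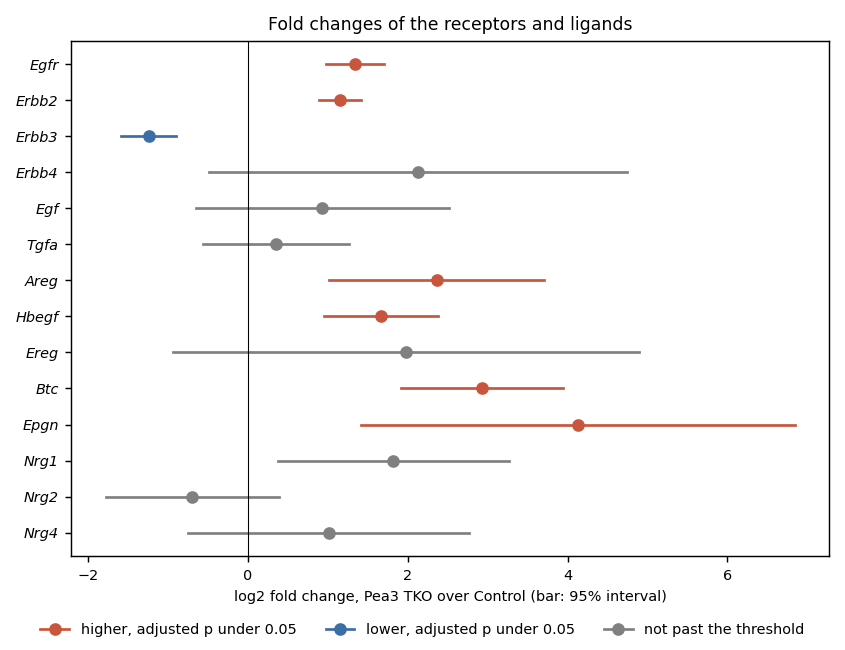
Log2 fold change of Pea3 TKO over Control for the 10 genes and for 4 other ligands of ErbB receptors, with the 95% interval as a bar, from the edgeR quasi-likelihood fit. Red marks a higher and blue a lower level at an adjusted p under 0.05, and grey marks genes not past it. The intervals of Egfr, Erbb2, Erbb3, Hbegf, Areg and Btc leave out 0, and those of Erbb4, Egf, Tgfa and Ereg include it.

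Set side by side per kilobase of exon, Tgfa had the highest level of the ligands in Controls, 2.51 ± 0.310 CPM per kilobase. Hbegf followed with 0.905 ± 0.180, then Areg with 0.588 ± 0.113 and Btc with 0.572 ± 0.348. Areg and Btc did not differ beyond their spread. Egf and Ereg had levels of 0.142 ± 0.0583 and 0.114 ± 0.197 CPM per kilobase, also within their spread. In Pea3 TKO the first 4 came close together. Btc had a level of 4.40 ± 1.43 CPM per kilobase, Tgfa 3.20 ± 1.99, Areg 3.04 ± 0.799 and Hbegf 2.87 ± 0.615, and no neighbours among these 4 differed beyond their spread. Ereg at 0.462 ± 0.136 and Egf at 0.272 ± 0.163 CPM per kilobase lay well below them. The summed ligand level was 5.23, 4.79 and 4.48 CPM per kilobase in Controls and 19.6, 12.3 and 10.8 in Pea3 TKO, so that the groups did not overlap.

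Tgfa made up 52.5% ± 10.4 of the summed ligand level in Controls and 21.1% ± 7.80 in Pea3 TKO. The share of Btc was 11.5% ± 6.16 and 31.2% ± 4.34, and that of Areg 12.2% ± 2.62 and 21.7% ± 2.33. Hbegf had a share of 18.7% ± 3.29 and 20.9% ± 5.34, a gap within its spread. These shares depend on the length taken for each gene. With the longest transcript in place of all exons, the share of Areg was 8.68% in Controls and 16.7% in Pea3 TKO.

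Btc, Areg and Ereg are neighbours on chromosome 5, together with the ligand Epgn (epigen). From Epgn to Btc the cluster spans chr5:91027464-91402994, 375.5 kb, with Areg at chr5:91139599-91148432 (+ strand) and Btc at chr5:91357261-91402994 (- strand). Epgn had 10, 0 and 0 counts in Controls and 24, 76 and 64 counts in Pea3 TKO, and all mutants were above all Controls. Its log2 fold change, 4.13 with a standard error of 1.22 (adjusted p = 0.034), rested on the fit to few reads, and it passed the low-count filter through the mutants only. Without Control 1, Epgn was at least 37.0-fold higher. The call was lost with the replicate number as a block (adjusted p = 0.057), without Control 2, Control 3, Pea3 TKO 2 or Pea3 TKO 3 (adjusted p = 0.073 to 0.12) and in the 4 libraries with Y-linked counts (adjusted p = 0.25). Of the genes of the cluster, 3 of 4 ligands were thus called higher (Areg and Epgn with the filter met through the mutants), against 13.6% of all tested genes, and Gm19619 inside it had 0 counts in every library. The next genes on either side, chosen after their values had been seen, were Mthfd2l, at -0.34 on the log2 scale (standard error 0.19, adjusted p = 0.23), and Parm1, at 1.41 (standard error 0.18, adjusted p = 0.00069).

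The neuregulins, the ligands of ErbB3 and ErbB4, gave few reads. Nrg1 and Nrg4 met the low-count filter only with the help of the Pea3 TKO samples, with 2 and 1 Control samples over it. Nrg1 measured 1.07, 0.561 and 0.650 CPM in Controls and 3.05, 3.15 and 1.94 CPM in Pea3 TKO, without overlap. Its difference of 1.82 ± 0.65 (log2, standard error) did not pass (adjusted p = 0.067). DESeq2 put the adjusted p of Nrg1 at 0.045, and in the 4 libraries with Y-linked counts the difference was 1.35 (adjusted p = 0.56). Neither Nrg2, at -0.70 on the log2 scale (standard error 0.49, adjusted p = 0.33), nor Nrg4, at 1.01 (standard error 0.79, adjusted p = 0.39), passed, and in the 4 libraries they were at -1.55 (adjusted p = 0.25) and 1.57 (adjusted p = 0.54). Nrg3 did not reach the filter, with 2, 0 and 0 counts in Controls and 0, 0 and 3 in Pea3 TKO. All 4 neuregulin genes were at or below 8.32 CPM in every library, the value of Nrg2 in Control 3.

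Further members of the pathway showed a mixed picture. Of 11 genes of ligand shedding, 10 were tested, 2 were higher, 1 was lower and 7 did not pass, near the share of 25.0% of all tested genes, with a median log2 fold change of 0.22. The 2 higher genes were those of the iRhom proteins. Rhbdf1 (iRhom1) rose from 120.9 ± 11.0 to 187.9 ± 17.5 CPM (log2 fold change 0.64, standard error 0.12, adjusted p = 0.0057) and Rhbdf2 (iRhom2) from 28.8 ± 4.88 to 45.8 ± 8.01 CPM (0.67, standard error 0.19, adjusted p = 0.03). Adam10, the protease that releases Egf and Btc, fell from 358.0 ± 75.0 to 237.8 ± 31.7 CPM (log2 fold change -0.59, standard error 0.17, adjusted p = 0.031). None of the 3 was called in the 4 libraries with Y-linked counts (adjusted p = 0.16 for Rhbdf1, 0.21 for Rhbdf2 and 0.34 for Adam10). The call of Rhbdf2 was lost without Control 1, Control 3, Pea3 TKO 1 or Pea3 TKO 3 (adjusted p = 0.059 to 0.11), and that of Adam10 without Control 2, Control 3, Pea3 TKO 1 or Pea3 TKO 2 (adjusted p = 0.076 to 0.12).

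Of 15 genes that restrain the receptors or send them for degradation, 3 were higher and none lower, a share near that of all tested genes, with a median log2 fold change of 0.06. Lrig1 and Lrig3 encode membrane proteins, of which Lrig1 is known to promote the removal of ErbB receptors, and Cblc encodes a ubiquitin ligase of the Cbl family. Lrig3 rose from 17.4 ± 3.28 to 34.6 ± 9.58 CPM (log2 fold change 0.99, adjusted p = 0.019) and Cblc from 29.0 ± 5.48 to 47.5 ± 6.13 CPM (0.71, adjusted p = 0.021). Lrig1 rose from 57.2 ± 13.1 to 83.7 ± 5.73 CPM (0.55, adjusted p = 0.046) and missed the threshold with the replicate number as a block (adjusted p = 0.054). With 1 library left out in turn, Lrig1 passed only without Control 3 (adjusted p = 0.04, otherwise 0.065 to 0.13). Cblc was lost without Control 2, Control 3, Pea3 TKO 1 or Pea3 TKO 2 (adjusted p = 0.063 to 0.08). The count of 3 fell to 0 without Control 2, Pea3 TKO 1 or Pea3 TKO 2. It was also 0 in the 4 libraries with Y-linked counts, where Lrig3 was at 0.46 (adjusted p = 0.45), Cblc at 0.50 (adjusted p = 0.33) and Lrig1 at 0.47 (adjusted p = 0.4).

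Of 25 adaptors that dock on the receptors or pass their signal on, 4 were higher, 2 were lower and 19 did not pass, again near the share of all tested genes, with a median log2 fold change of 0.12. Eps8, named as a substrate of the Egfr kinase and a regulator of actin, fell from 250.7 ± 25.1 to 54.3 ± 2.82 CPM, -2.21 on the log2 scale (standard error 0.12, adjusted p = 8.6e-06). Grb10, an adaptor of several growth factor receptors, fell from 626.7 ± 48.0 to 414.9 ± 38.5 CPM (log2 fold change -0.60, adjusted p = 0.0066). Vav3, an adaptor that is itself phosphorylated by receptor kinases, rose from 27.4 ± 11.1 to 109.1 ± 14.7 CPM, 1.99 on the log2 scale (standard error 0.26, adjusted p = 0.00076). The PI3-kinase subunits Pik3r3 and Pik3r1, which couple phosphorylated receptors to PI3-kinase, rose as well. Pik3r3 went from 22.2 ± 2.20 to 44.6 ± 5.03 CPM (adjusted p = 0.003) and Pik3r1 from 40.2 ± 11.6 to 67.8 ± 15.0 CPM (adjusted p = 0.036). Eps15, an endocytic adaptor, rose from 59.3 ± 8.37 to 90.2 ± 1.90 CPM (adjusted p = 0.013). The call of Eps15 was lost without Control 2 (adjusted p = 0.054) and that of Pik3r1 without Control 2, Control 3, Pea3 TKO 1 or Pea3 TKO 2 (adjusted p = 0.063 to 0.13). In the 4 libraries with Y-linked counts Eps8, Vav3 and Pik3r3 were called, while Grb10 (adjusted p = 0.098), Eps15 (adjusted p = 0.16) and Pik3r1 (adjusted p = 0.39) were not.

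**Figure D4:**
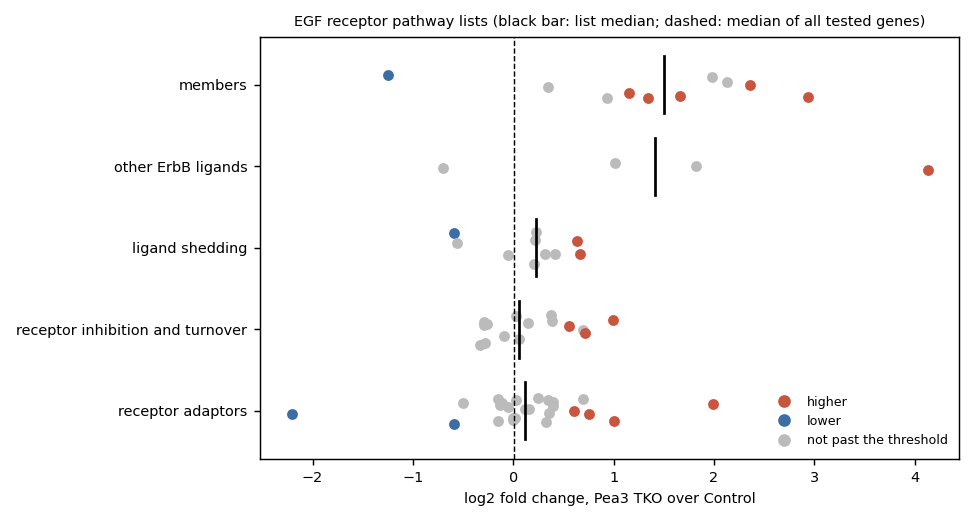
Log2 fold change of Pea3 TKO over Control for each tested gene of the EGF receptor pathway lists, with the list median as a black bar and the median of all 13087 tested genes as a dashed line. Each point is 1 gene, red if higher, blue if lower and grey if not past an adjusted p of 0.05. The receptors and ligands have a median of 1.5, whereas the lists of shedding, inhibition and adaptors have medians of 0.22, 0.06 and 0.12. The median of 1.5 includes Erbb4, Ereg and Areg, which passed the low-count filter only with the help of the Pea3 TKO samples.

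Markers of surface epithelium were mostly higher in Pea3 TKO, as were Egfr, Erbb2, Btc, Areg and Hbegf. Erbb3 was lower, and Erbb4, Tgfa, Egf and Ereg did not pass. The 15 markers of stratified surface epithelium summed to 1656, 625 and 569 CPM in Controls and to 7797, 6755 and 5462 CPM in Pea3 TKO. Of the 13 tested, 12 were higher, against 13.6% of all tested genes, the exception being Trp63 (log2 fold change -0.04, adjusted p = 0.92). Krt13, Dsg3 and Krt4 met the low-count filter only with the help of the Pea3 TKO samples, with 0, 0 and 2 Control samples over it. None of the 15 was at 0 in all libraries. Control 1 had the highest sum of the Controls. It was also the highest Control for Erbb2, Btc, Ereg and Epgn and the lowest for Erbb3, but it was the lowest for Areg, and Control 2 was the highest for Hbegf and, by a small margin, for Egfr. The 8 markers of simple epithelium summed to 3082 to 3828 CPM in Controls and 5381 to 6336 CPM in Pea3 TKO. Of these 8, 6 were higher, against 13.6% of all tested genes, whereas the epithelial marker Epcam did not pass (1408 ± 88.2 against 1256 ± 73.4 CPM, adjusted p = 0.31). The part of the epithelial make-up of the samples in the changes of Egfr, Erbb2, Erbb3, Btc, Areg, Hbegf, Ereg and Epgn was not tested. Summed markers of the other cell types overlapped between the groups. They ranged in Controls and in Pea3 TKO from 0.187 to 31.9 and from 0 to 28.3 CPM for 9 leukocyte markers and from 2.18 to 3.95 and from 0.411 to 7.76 CPM for 7 endothelial markers, with Tie1 and Emcn at 0. Melanocyte markers, 6 in all with Tyrp1 at 0, ranged from 3.19 to 4.79 CPM in Controls and from 3.43 to 7.27 CPM in Pea3 TKO. Red cell markers, 7 of 8 listed, ranged from 51.5 to 215.7 CPM and from 58.9 to 397.1 CPM. Of the 14 mesenchyme markers 13 were tested, 2 were higher and none lower, against 13.6% higher and 11.3% lower of all tested genes. The 2 higher ones, Dcn and Lum, each had 2 Control samples over the low-count filter and met it with the help of the Pea3 TKO samples.

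**Figure D5:**
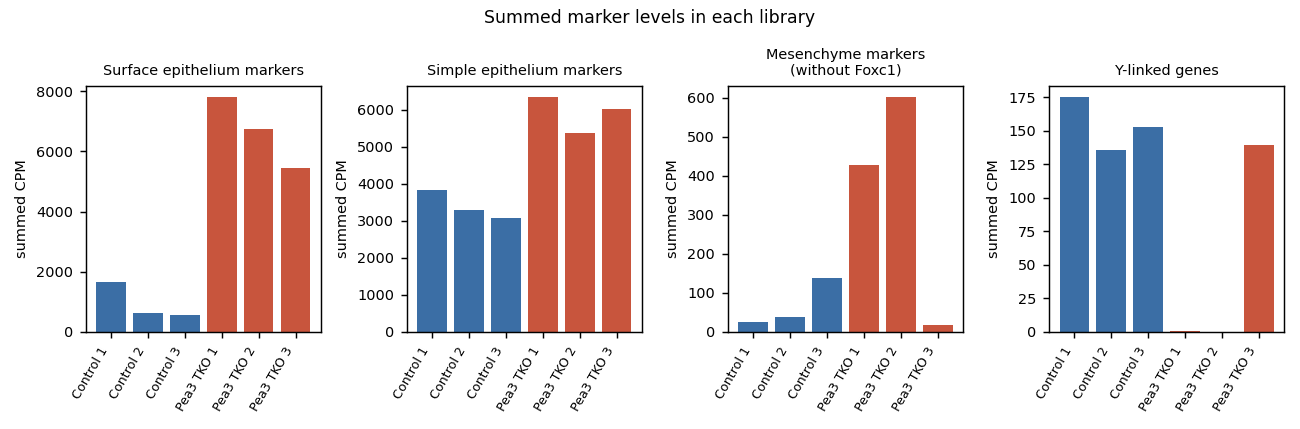
Summed CPM of 15 surface stratified epithelium markers, 8 simple epithelium markers, 13 mesenchyme markers (without Foxc1) and 4 Y-linked genes in each library, on linear axes from 0. Surface markers sum to at least 5462 CPM in each Pea3 TKO library and at most 1656 in Controls, while mesenchyme markers are high in Pea3 TKO 1 and 2 only, the libraries without Y-linked counts.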

How the data were processed

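RNA-seq covered 3 Control and 3 Pea3 TKO samples of laser-captured E14.5 lacrimal gland buds. The authors deposited raw counts, 1 table of reads by gene symbol for each sample, not normalized. The submitters' processing notes name bcl2fastq 2.17, STAR 2.5.2b, featureCounts 1.5.0-p3, DESeq and the build mm10. The annotation and the strand setting of the counting are not given in the sources used here.

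From these counts, the default low-count filter (filterByExpr) of edgeR 4.0.16 under R 4.3.3 kept 13087 of 23420 genes. Counts were scaled by TMM, and the groups were compared by the edgeR quasi-likelihood test with Benjamini-Hochberg adjustment over all tested genes and a threshold of 0.05. Every adjusted p in the text comes from this test unless DESeq2 1.42.0 or limma-voom (limma 3.58.1) is named. The script was tested on simulated counts. Gene positions and exon lengths are those of GENCODE M21 (GRCm38), matched by symbol.

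The receptors, ligands and lists were chosen with earlier results of these data known. Named genes are all members, the deleted genes, every other ligand, at most 6 called genes of each further list with the smallest p, the 3 genes of most similar profile for each called member, and marker genes beside a result. Mthfd2l, Parm1 and Gm19619 fall outside this rule and were chosen after their values were seen. Alternatives were DESeq2, limma-voom, other scalings and filters, the replicate number as a block, a Y-linked covariate, and leaving out each library. The fit on the 4 libraries with over 100 Y-linked counts was chosen after seeing the data. Replicates were compared for duplicate libraries, and within a group the counts differed by a chi-square of 15.5 or more for each degree of freedom, far above sampling noise.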

Additional observations from a re-analysis of the deposited data

How the results depend on the processing

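All 6 calls among the receptors and ligands were kept under DESeq2, limma-voom, RLE, upper-quartile and library-total scaling, no filter, a filter of 1 CPM in 3 samples and the replicate block. Without 1 library in turn the log2 fold change ran from 1.18 to 1.45 for Egfr, 1.10 to 1.24 for Erbb2, -1.39 to -1.12 for Erbb3, 1.505 to 1.82 for Hbegf and 2.61 to 3.53 for Btc, and all of these passed. Areg passed in 2 of the 6 such fits, the ones without Control 1 or Pea3 TKO 3. The number of members called was 5 to 7, higher 4 to 6 and lower 1 to 1. Over all genes it was 1948 to 3344, the lowest without Control 3. For other ligands it was 0 to 1, for shedding 1 to 3, for inhibition and turnover 0 to 3 and for adaptors 4 to 7. Tgfa ran from -0.22 (without Pea3 TKO 1, a turn in direction) to 0.72.

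With the Y-linked covariate 865 genes passed, and 3 members were higher. Areg (1.93, adjusted p = 0.2) and Hbegf (1.69, adjusted p = 0.055) were lost, and Tgfa turned to -0.91 and Egf to -0.65. No other ligand, 0 shedding genes, 0 inhibition genes and 3 adaptors passed. In the 4 libraries with Y-linked counts 597 genes and 2 members (Egfr and Erbb2) passed, 2 higher and 0 lower, with Tgfa at -0.91 and Egf at -0.67. There 0 other ligands, 0 shedding genes, 0 inhibition genes and 3 adaptors passed. This fit has fewer samples and 1 mutant. DESeq2 called 2 other ligands and 5 inhibition genes, and limma-voom 5 inhibition genes and Ereg (4.04, adjusted p = 0.05). The cause of these differences was not tested.

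With the replicate number as a block, Egfr was 1.33, Erbb2 1.16, Erbb3 -1.23, Areg 2.34 (adjusted p = 0.047), Hbegf 1.66 and Btc 3.04. Epgn and Lrig1 were lost, leaving 0 other ligands. Deviations from the group means correlated at a mean r of 0.0287 for samples of the same number (-0.0424 to 0.1295, 3 pairs). For other pairs the mean r was -0.0143 (-0.1061 to 0.1278, 6 pairs). With so few pairs, whether samples of the same number share more than the number cannot be told. With the longest transcript as length, the share of the summed ligand level was 4.88% and 3.36% for Egf, 8.68% and 16.7% for Areg and 22.2% and 27.0% for Hbegf (Control and Pea3 TKO), and 2.52% for Ereg in Pea3 TKO. Erbb4 could not be tested under the stricter filter or without Pea3 TKO 3. Depth limits Erbb4, Ereg, Areg, Epgn and the neuregulins.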

Other observations

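For each receptor or ligand past the test, the genes with the most similar profile over the 6 libraries were found among about 9726 genes with a mean of at least 10 CPM, by the root mean square difference of log2 CPM centred on the mean of each gene. This describes likeness over 6 samples that mostly differ by group, and no test was made. Closest to Egfr were Notch3, a Notch receptor (0.0637), Zfp703 (0.0682) and Tmem205 (0.0866), where Egfr itself deviated from its mean by 0.688. Closest to Erbb2 were Cdh1, the epithelial cadherin (0.0547), Slc35b3 (0.0657) and Vwa5a (0.0657), against 0.587 for Erbb2 itself. Closest to Erbb3 were Lamc1, a laminin chain of basement membranes (0.0397), Uchl1 (0.0550) and Crispld2 (0.0799), against 0.640.

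For Areg, which itself deviated by 1.11, the closest were Sdr42e1 (0.113), Jag1, a Notch ligand (0.201), and Txnip (0.244). For Hbegf they were Ddit4 (0.130), Slc24a6 (0.165) and Ifi35 (0.166), against 0.852. For Btc they were Zfp536 (0.112), Arg1, the arginase of the urea cycle (0.139), and Hspb1, a small heat shock protein (0.157), against 1.59. Each of these 18 genes changed in the same direction as the gene it was matched to, which follows from choosing them by likeness over the same samples.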
